A study of Mus musculus with 6 samples.

Results

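The genes described here build the acellular membranes, the endolymph and the cell junctions of the inner ear. They are 9 genes chosen by function, namely Oc90, Otog, Otogl, Tecta, Tectb, Otoa, Slc26a4, Gjb2 and Gjb6. The array platform's annotation names a probe set for 8 of the 9, each with 1 probe set, among 18193 genes that have a probe set of their own. No probe set is annotated to Otogl in the table used here, so Otogl was not analysed. The tissue was the otic vesicle, the epithelial sac that becomes the inner ear, dissected together with the mesenchyme around it from mouse embryos at embryonic day 11.5. Mest-KO pools came from embryos with a T-Cre conditional Tbx1 knockout, and control pools from embryos heterozygous for the conditional Tbx1 allele, which also carried T-Cre. T-Cre is driven by the Brachyury promoter and acts in mesoderm. Each of the 3 arrays per genotype held RNA from the left and right ears of 3 pooled embryos, and the labels call the arrays biological replicates.

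The inner ear works because its sensory patches are covered by extracellular membranes and bathed in a potassium-rich fluid, the endolymph. Otoconia, the calcium carbonate crystals of the gravity-sensing organs, grow on a protein core of which otoconin, the product of Oc90, is the main component in mammals. Otogelin (Otog) and otogelin-like (Otogl) are large secreted glycoproteins of all the acellular membranes of the ear. The tectorins (Tecta, Tectb) form the striated matrix of the tectorial membrane over the auditory hair cells, and otoancorin (Otoa) anchors such membranes to the cells beneath. Pendrin (Slc26a4) exchanges anions in the endolymphatic sac and elsewhere in the epithelium. Gjb2 and Gjb6 encode the main connexins of the cochlear gap junctions, through which ions and small molecules pass between supporting cells. Otoconin is among the early differentiation products of the otic epithelium, while tectorial membranes are laid down later in development.

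Tbx1, the gene targeted in Mest-KO, read 520.5, 578.0 and 409.9 in Mest-KO, against 524.5, 567.3 and 446.7 in control. The genotypes overlapped (log2 difference -0.03 ± 0.14, SE; limma, adjusted p = 0.967). Tbx1 therefore did not separate the labelled genotypes, and the cause was not tested. As background, the otic epithelium also makes Tbx1. Of the markers of the labelled tissue, 18 of 18 for otic epithelium and 16 of 16 for periotic mesenchyme were above background on all arrays. So were 15 of 15 for surface ectoderm, 14 of 14 for sensory neurons, 9 of 10 for pharyngeal endoderm, 9 of 9 for endothelium and 8 of 8 for macrophages. For erythroid cells it was 8 of 9 and for the hindbrain neural tube 8 of 14, beside 74.8% of all genes. These counts show that most of the markers were present and not how pure the tissue was. Across the 14170 genes bright enough to test, 12 rose and 9 fell in Mest-KO at an adjusted p under 0.05, which is 0.148% of genes. With each array centred on its median that split was 22 and 56.

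Intensities were on a linear scale in arbitrary units, scaled by the authors to the same trimmed mean on every array. A gene was called detected on an array where it read above 11.2, the highest intensity of 27 probe sets for bacterial transcripts that had not been spiked in. By that level 6 of the 8 genes were detected on all 6 arrays, where 74.8% of all genes were. These were Oc90, Otog, Tecta, Otoa, Gjb2 and Gjb6. Tectb was detected on 5 arrays and Slc26a4 on 3. Among 44 probe sets for olfactory receptor genes, which ear tissue is not known to use, the 95th percentile was between 5.49 and 10.2 on the 6 arrays. Brightness depends on the probe, so intensities were compared between arrays and not between genes.

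None of the 8 measured genes passed the test between genotypes. Of the 7 that passed the filter on dim genes, 0 passed the limma test at an adjusted p under 0.05 and 0 at an unadjusted p under 0.05, where 8.97% of all genes did. Adjusted p ran from 0.570 for Otog to 0.990 for Gjb6. The log2 difference was positive for 5 genes and negative for 2, with a median of 0.12 beside 0.01 over all genes tested. The values of the genotypes overlapped for all 8 measured genes, while 14.5% of the genes tested had groups that did not overlap. In the fit over all 45037 probe sets without a filter, 0.0133% passed and 0 of the 8 did, also with 0 at an unadjusted p under 0.05. These are bulk samples, in which fewer cells of a type and less RNA per cell cannot be told apart.

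**Figure D1:**
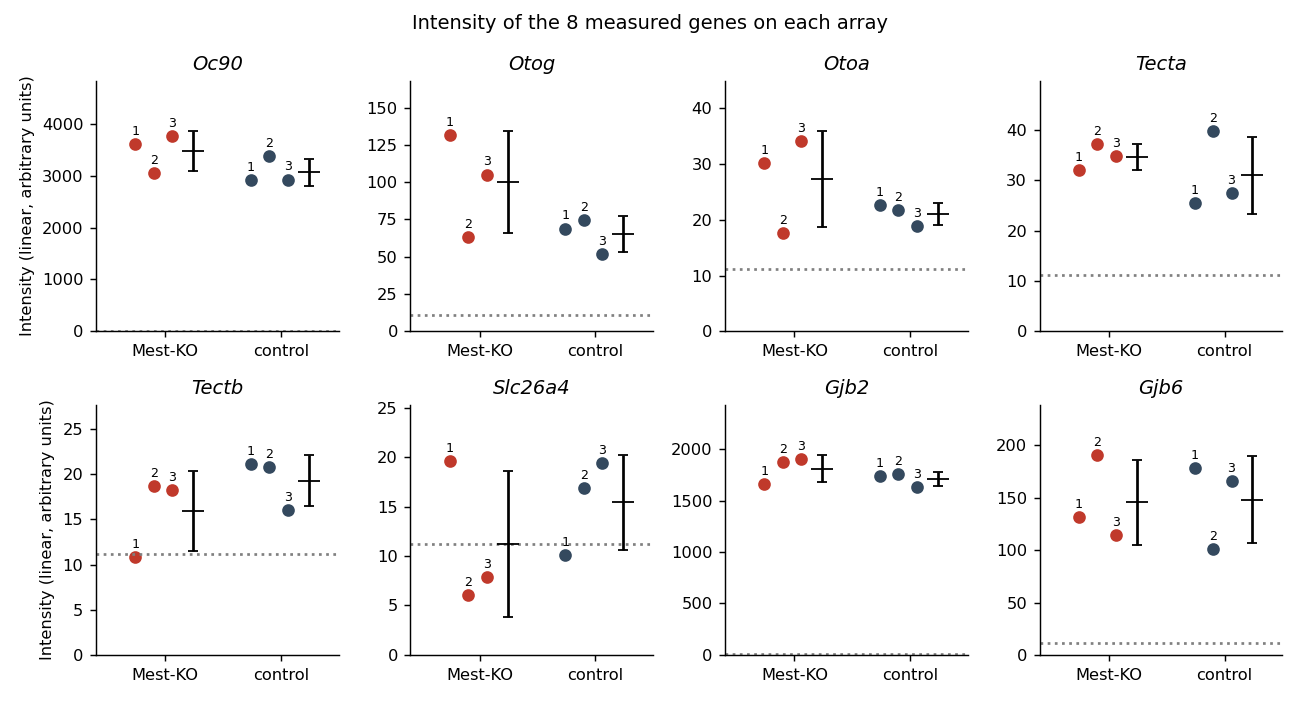
Intensity (linear, arbitrary units) of each measured gene on the 3 Mest-KO and 3 control arrays. Numbered points are arrays, the black bar is the mean with SD (n = 3 each), the dotted line is the background level of 11.2 and each panel has its own axis. The genotypes overlap in every panel, and only Tectb and Slc26a4 have points below the line.

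Oc90, the otoconial core protein gene, was far above background in every pool. It read 3619.7, 3049.7 and 3782 in Mest-KO, against 2915, 3378 and 2932 in control. Mest-KO 1 and 3 were higher than every control, and Mest-KO 2 lay among the controls. The means were 3484 ± 385 in Mest-KO and 3075 ± 262 in control (SD, n = 3 each). The fold was 1.13 with a 95% interval from 0.978 to 1.31, so an increase beyond 1.31-fold lay outside it (log2 difference 0.18 ± 0.09; limma, adjusted p = 0.623; exact permutation p = 0.2, two-sided, where 3 arrays against 3 cannot give less than 0.1).

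Otog, encoding otogelin, had the largest log2 difference of the 8 genes, though not without Mest-KO 1, where it was 0.28 and that of Slc26a4 -0.44. It read 131.5, 63.4 and 105.2 in Mest-KO, against 68.9, 74.9 and 51.9 in control. Mest-KO 1 and 3 again stood above every control, and Mest-KO 2 lay between the lowest and the middle control. Mest-KO differed from control by 0.48 ± 0.23 on the log2 scale, and the 95% interval spanned -0.02 to 0.98 (limma, adjusted p = 0.570; exact permutation p = 0.3).

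Otoa, encoding otoancorin, was detected at a low level on all arrays. It read 30.1, 17.6 and 34.1 in Mest-KO, against 22.6, 21.8 and 18.9 in control. The order of arrays within Mest-KO was that of Oc90, with array 3 highest and array 2 lowest, and the lowest of all 6 readings was Mest-KO 2. The log2 difference was 0.20 ± 0.19 (limma, adjusted p = 0.815). At 2 times the background level Otoa no longer counted as detected on all arrays, which left 5 genes that did.

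Tecta, encoding alpha-tectorin, also read low. Its values were 32.0, 37.2 and 34.8 in Mest-KO, against 25.6, 39.8 and 27.6 in control. The highest and the lowest reading were both controls. The log2 difference was 0.12 ± 0.18 (limma, adjusted p = 0.888). Tectb, encoding beta-tectorin, lay at the edge of detection. It read 10.8, 18.7 and 18.3 in Mest-KO, against 21.1, 20.8 and 16.0002 in control. Mest-KO 1 was below the background level, so Tectb was detected in 2 of 3 Mest-KO pools and 3 of 3 control pools. The log2 difference was -0.15 ± 0.18 (limma, adjusted p = 0.861).

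Promoters of Otog and Otoa are shown because these genes varied together across arrays. Whether their sequences bear on that pattern was not tested. The RefSeq promoter table (GRCm38.p6) holds 8 starts of 7 of the 9 genes, without Oc90 and Otogl. The 250 bases before each start are printed 5′ to 3′ on the gene's strand, with every CG dinucleotide in capitals. Otog lies at chr7:46240737-46240986 on the plus strand and Otoa at chr7:121083174-121083423 on the plus strand.
Otog: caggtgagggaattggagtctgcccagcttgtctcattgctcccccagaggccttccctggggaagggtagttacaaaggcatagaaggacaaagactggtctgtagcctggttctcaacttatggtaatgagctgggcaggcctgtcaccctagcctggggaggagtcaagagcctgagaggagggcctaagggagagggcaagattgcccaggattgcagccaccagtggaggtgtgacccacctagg
Otoa: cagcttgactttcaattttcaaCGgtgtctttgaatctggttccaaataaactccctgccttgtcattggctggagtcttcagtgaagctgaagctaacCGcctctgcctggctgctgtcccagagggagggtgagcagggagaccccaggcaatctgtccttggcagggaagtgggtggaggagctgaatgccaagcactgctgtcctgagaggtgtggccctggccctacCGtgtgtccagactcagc
The Otog window holds 0 CG dinucleotides and the Otoa window 3, beside a median of 6 over 32851 such windows. Low numbers were not particular to this pair, with 2 and 5 in the Tecta windows, 3 for Tectb, 4 for Slc26a4 and 5 for Gjb6. Only Gjb2, with 18, was above the median.

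Slc26a4, encoding pendrin, was the gene nearest to background. It read 19.6, 6.10 and 7.90 in Mest-KO, against 10.1, 16.9 and 19.4 in control. It exceeded the background level in 1 of 3 Mest-KO pools and 2 of 3 control pools, and the highest reading of all was Mest-KO 1. Its mean lay under the 30th percentile filter, so it was fitted only with all probe sets, where the log2 difference was -0.23 ± 0.21 (limma, adjusted p = 0.812). With readings on both sides of background this gives no dependable fold. Foxi1, a forkhead factor that mouse pendrin expression in the endolymphatic duct and sac depends on, read 34.5, 22.4 and 37.2 in Mest-KO, against 27.8, 21.2 and 27.1 in control. Foxi1 was above background on all arrays and its groups overlapped.

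Gjb2 was the steadiest of the 8 genes. It read 1657, 1870.3 and 1905 in Mest-KO, against 1735, 1761 and 1629 in control. The coefficient of variation was 7.42% in Mest-KO and 4.09% in control. Mest-KO 2 and Mest-KO 3 were the highest readings of all, and Mest-KO 1 was lower than all but control 3. The fold was 1.06 with a 95% interval from 0.929 to 1.204 (log2 difference 0.08 ± 0.08; limma, adjusted p = 0.833). Gjb6, the other connexin gene, was also above background on every array but varied more. It read 131.3, 191.1 and 114.4 in Mest-KO, against 178.1, 101.2 and 165.7 in control. The highest reading was Mest-KO 2 and the lowest control 2, and the means were 145.6 ± 40.3 in Mest-KO and 148.3 ± 41.3 in control (SD, n = 3 each). Mest-KO differed from control by -0.02 ± 0.22 on the log2 scale, and the 95% interval spanned -0.51 to 0.48 (limma, adjusted p = 0.990). Across the 6 arrays the pair did not run together (Pearson's r = -0.11, Spearman's rho = -0.14).

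**Figure D2:**
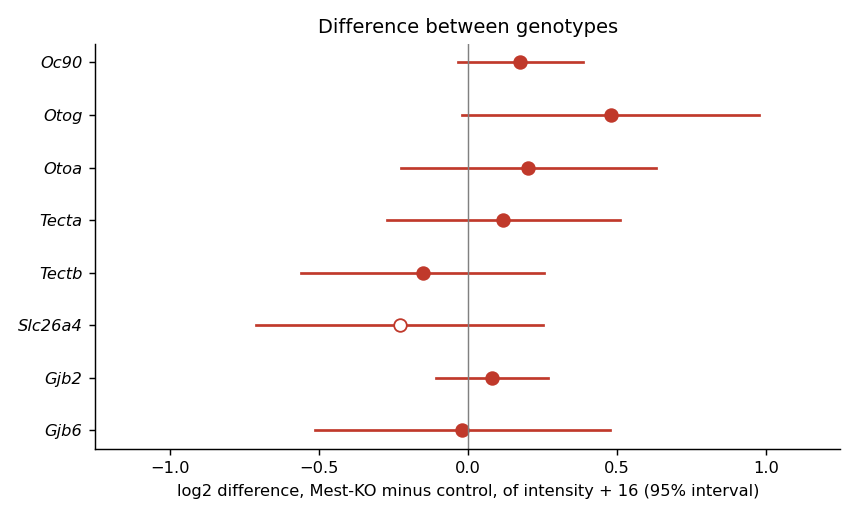
Log2 difference of each gene, Mest-KO minus control, on the log2(intensity + 16) scale, with its 95% interval from limma. Filled points are genes in the fit of 14170 genes and the open point is Slc26a4 in the fit of all probe sets. All 8 intervals include 0, and that of Otog, from -0.02 to 0.98, reaches farthest.

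Gjb2 and Gjb6 are next to each other on chromosome 14 with 0 annotated genes between them. Their promoters are shown because the neighbours differ in the sequence before the start. Gjb2 lies at chr14:57104703-57104952 on the minus strand and Gjb6 at chr14:57133612-57133861 on the minus strand, each with 250 bases before the start as above and CG dinucleotides in capitals.
Gjb2: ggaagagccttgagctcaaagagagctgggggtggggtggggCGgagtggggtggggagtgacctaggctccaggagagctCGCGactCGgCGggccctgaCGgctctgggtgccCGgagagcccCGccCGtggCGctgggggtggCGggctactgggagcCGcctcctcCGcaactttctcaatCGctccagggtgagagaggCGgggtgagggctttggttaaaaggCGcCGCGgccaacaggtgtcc
Gjb6: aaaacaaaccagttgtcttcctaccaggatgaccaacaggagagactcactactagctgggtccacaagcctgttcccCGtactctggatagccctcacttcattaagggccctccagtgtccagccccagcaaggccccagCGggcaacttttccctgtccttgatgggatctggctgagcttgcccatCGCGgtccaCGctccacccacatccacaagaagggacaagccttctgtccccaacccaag
The Gjb2 window is 69.2% G and C with 18 CG dinucleotides, a number that 21.7% of all windows reach. The Gjb6 window is 56.8% G and C with 5 CG dinucleotides, a number that 55.6% of windows reach. The GC box letters GGGCGG, searched on both strands, occur 2 times in the Gjb2 window, in none of the other 7 windows and in 32.7% of all windows. The TATA box letters TATAAA, searched likewise, occur only in the Slc26a4 window among the 8, and in 12.4% of all windows. Only the exact letters were searched, so variants of either box were not counted. A match is a description of the letters and no evidence of binding.

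The matrix genes Oc90, Otog and Otoa ran together across the 6 arrays. Relative to each gene's mean, Oc90, Otog and Otoa were all high in Mest-KO 1 and Mest-KO 3 and all low in Mest-KO 2, control 1 and control 3. Pearson's r was 0.88 for Oc90 with Otog (Spearman's rho 0.77), 0.87 for Oc90 with Otoa (rho 0.60), and 0.89 for Otog with Otoa (rho 0.83), each over 6 arrays. Without the 2 arrays farthest from the median of the first gene, r was 0.65, 0.22 and 0.64, so much of the likeness rested on those arrays. With the genotype means taken out r was 0.80, 0.82 and 0.86. These are 3 of 28 pairs examined, the arrays share their scaling, and 1.61% of all genes tested had an r with Oc90 at least that of Otog. The tectorin genes did not run with all of Oc90, Otog and Otoa over the 6 arrays. For Tectb r was -0.38 with Oc90, -0.57 with Otog and -0.37 with Otoa. For Tecta r was 0.52 with Oc90 (rho 0.54), 0.23 with Otog and 0.05 with Otoa. These values were unsteady when the 2 arrays farthest from the median of 1 gene of the pair were left out. For Tectb r then was 0.43, 0.96 and -0.36, and for Tecta 0.86, 0.47 and -0.69, in the same order. Slc26a4 ran opposite to Gjb2 (r = -0.88, rho -0.83), with Slc26a4 readings on both sides of background. Gjb6 ran the other way from Oc90 (r = -0.79, rho -0.66), and within genotypes r was -0.97.

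Markers of neighbouring tissues moved with some of these genes, and not with all of them. The hindbrain neural tube markers, relative to the mean of the 6 arrays on the log2 scale, stood at -0.47, 0.09 and -0.63 in Mest-KO 1, 2 and 3 and at 0.53, -0.21 and 0.69 in control 1, 2 and 3. Their summed intensity ran from 1496 to 2339.8 in Mest-KO and from 1776 to 3497 in control. A large part of that sum was Sox2, at 1123 to 1612 in Mest-KO and 1195 to 1634 in control (log2 difference 0.003). Of 15 such genes 14 had a probe set, 8 were above background on all arrays, and Olig2 and Dbx2 were on none. Oc90 was high where this list was low (r = -0.97, rho -0.94, and -0.998 without the 2 arrays where the list was farthest from its median), and within genotypes r was -0.95. Of all genes tested, 0.219% had an r with the list as low as that of Oc90. Gjb6 went with the list (r = 0.72, rho 0.60), and 9% of all genes tested had an r as high. Within genotypes r was 0.97 for Gjb6. No such share was taken for the values within genotypes. With the same list r was -0.86 for Otog, -0.77 for Otoa and -0.66 for Tecta, but -0.46 for Gjb2, 0.30 for Tectb and 0.10 for Slc26a4. An r as low was found for 2.65% of all genes tested for Otog, 6.1% for Otoa and 11.8% for Tecta. Without the 2 arrays where the list was farthest from its median, r was -0.86 for Otog and -0.99 for Otoa, but turned to 0.60 for Tecta. The likeness was not particular to neural tube markers. With the endothelium markers r within genotypes was 0.98 for Gjb6 and -0.96 for Oc90, while over all 6 arrays it was 0.59 and -0.009.

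The periotic mesenchyme markers stood at -0.13, 0.07 and -0.09 in Mest-KO and 0.11, 0.003 and 0.04 in control. Their summed intensity ran from 39061 to 44075 in Mest-KO and from 41011 to 43710.1 in control. Oc90 was high where they were low (r = -0.92, rho -0.89). Of the 16 genes tested in this list 11 had a negative log2 difference (median -0.10). At an unadjusted p under 0.05 there were 1 higher and 4 lower, beside 8.97% of all genes tested. The 1 that passed rose, namely Meox1, a homeobox gene of paraxial mesoderm (log2 difference 1.15 ± 0.18; limma, adjusted p = 0.0433). The otic epithelium markers, the tissue that makes otoconin, stood at -0.10, -0.16 and 0.11 in Mest-KO and -0.04, 0.11 and 0.075 in control, with sums from 14018 to 16684 in Mest-KO and from 13327 to 16775 in control. Over all arrays r of Oc90 with them was 0.25 (rho 0.26), and 27% of all genes tested had an r as high. Within genotypes it was 0.76, and without the 2 arrays where the list was farthest from its median it was 0.72. With the surface ectoderm markers r of Oc90 was 0.32 over all arrays and 0.69 within genotypes. Over all genes tested, 0.148% passed at an adjusted p under 0.05. Among the other marker lists, 2 of 14 tested sensory neuron genes rose, Pou4f1 (0.59 ± 0.08; limma, adjusted p = 0.0256) and Neurog1 (1.15 ± 0.19; limma, adjusted p = 0.0478). Their list summed to between 39459.7 and 41212 in Mest-KO and between 32872 and 35719 in control. Of 9 tested endoderm genes 1 fell, Foxa1 (-1.34 ± 0.17; limma, adjusted p = 0.0191). Of 10 tested neural tube genes 1 fell, Hoxb1 (limma, adjusted p = 0.0478), which was not above background in any Mest-KO pool. Hoxb1 passed the filter on dim genes through its control readings of 40.2, 29.1 and 66.0. Its call, and the counts and median of the neural tube list that include it, are therefore no support for a difference. Of 17 alternatives, Meox1 and Neurog1 lost theirs in 10, Pou4f1 in 9 and Foxa1 in 6, and Hoxb1 lost its call in 10 of 16. At an unadjusted p under 0.05, 9 sensory neuron genes were higher and 0 lower (14 of 14 positive, median 0.27), 0 neural tube genes were higher and 5 lower (median -1.07), and 0 endoderm genes were higher and 4 lower (8 of 9 negative, median -0.35), where 8.97% of all genes tested passed that level. In the lists for otic epithelium (18 genes tested), surface ectoderm (15), erythroid cells (8), endothelium (9) and macrophages (8), 0 passed. At an unadjusted p under 0.05, 1 gene was higher and 3 were lower in Mest-KO for otic epithelium, 1 and 1 for surface ectoderm, 0 and 1 for erythroid cells, 2 and 0 for endothelium and 1 and 0 for macrophages. Of otic epithelium, Sox10 was higher (0.41 ± 0.08; limma, adjusted p = 0.106). Lower were Otx1 (-0.79 ± 0.20; limma, adjusted p = 0.209), Cdh1 (-0.37 ± 0.11; limma, adjusted p = 0.278) and Gata3 (-0.62 ± 0.21; limma, adjusted p = 0.361). The 72 relations of 8 genes with 9 marker lists were descriptions without p, and the part of tissue makeup in the levels of these genes was not tested.

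**Figure D3:**
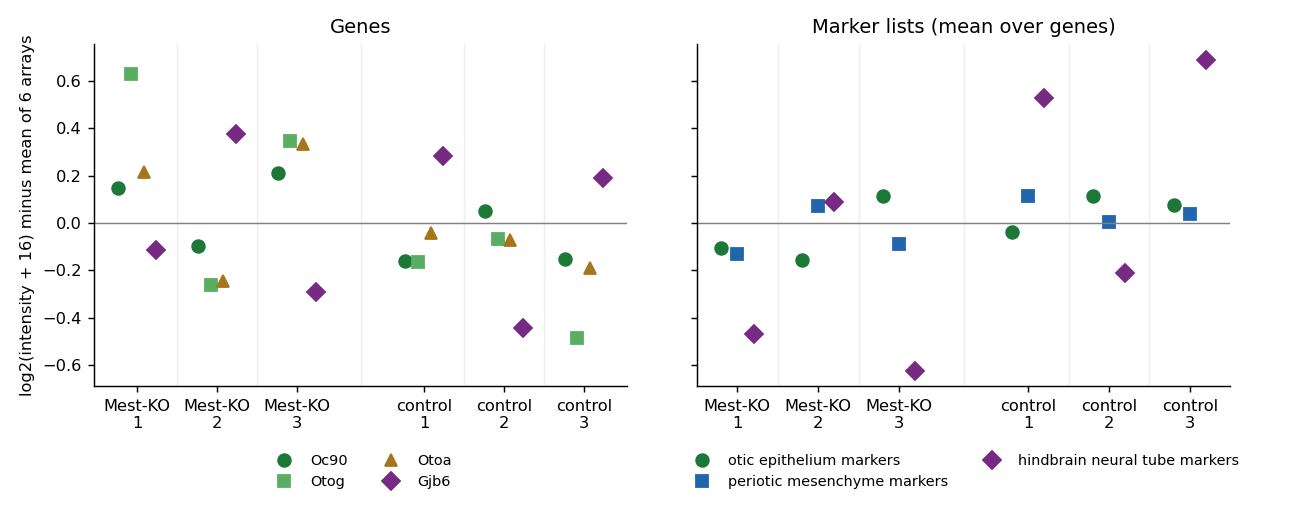
Log2(intensity + 16) minus the mean of the 6 arrays, by array, for 4 genes (left) and for the mean of 3 marker lists (right). Each symbol is 1 gene or list. Oc90, Otog and Otoa are highest in Mest-KO 1 and 3, where the hindbrain neural tube markers are lowest, and Gjb6 is highest in Mest-KO 2 and lowest in control 2.

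Among all genes tested, those most like Oc90 over the 6 arrays were Chd7 (r = 0.991), Afdn (r = 0.987) and Slc9b2 (r = 0.985). For Gjb2 they were Il1r1 (r = 0.993), Dcaf1 (r = 0.991) and Myl9 (r = 0.991), and for Gjb6 Pkia (r = 0.991), Flt4 (r = 0.989) and Lrrc1 (r = 0.987). These are the highest values picked from all genes tested, over only 6 arrays. An r over 0.9 was found for 160 genes with Oc90 (1.13% of genes), 123 with Gjb2 (0.868%) and 139 with Gjb6 (0.981%). None of these 9 genes passed the test between genotypes.

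Other genes of the same structures did not pass the test over all genes either. Of 14 tested genes listed with the acellular membranes, 0 passed, and 8 had a positive and 6 a negative log2 difference. The median was 0.02. Not all of the list encodes matrix proteins, as Noxo1 and Otop1 below show. At an unadjusted p under 0.05 there were 1 higher, Noxo1, and 1 lower, Coch, where 8.97% of all genes tested passed that level. Noxo1, whose product organises the oxidase needed for otoconia in mice, read 283.3, 211.1 and 176.5 in Mest-KO, against 175.4, 165.1 and 147.1 in control. Each Mest-KO reading exceeded each control reading (0.40 ± 0.17; limma, adjusted p = 0.521). Otop1, a proton channel that mouse otoconia also need, read 36.5, 31.5 and 22.7 in Mest-KO, against 14.4, 21.8 and 20.5 in control, again without overlap (0.40 ± 0.19; limma, adjusted p = 0.570). Coch, encoding the secreted protein cochlin, averaged 70.4 ± 5.29 in Mest-KO and 100.1 ± 17.8 in control (SD, n = 3 each; -0.42 ± 0.16; limma, adjusted p = 0.460). Usp53, needed for hearing in mice, differed by -0.29 ± 0.16 (limma, adjusted p = 0.633). These 4 had the smallest p of the list, and 3 of the 14 genes did not overlap between genotypes, beside 14.5% of all genes tested.

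Of 17 tested genes of endolymph ion transport, 0 passed, with 11 positive and 6 negative log2 differences and a median of 0.11. At an unadjusted p under 0.05 there were 2 of the 17, Slc4a11 and Slc26a7, both higher, beside 8.97% of all genes tested. Slc4a11, a transporter of inner ear fibrocytes, read 29.9, 17.7 and 19.0 in Mest-KO, against 4.19, 10.5 and 6.47 in control. All 3 controls were not above background, so no fold is given, and the difference did not pass (limma, adjusted p = 0.248). Slc4a11 passed the filter on dim genes through its Mest-KO readings. The counts of this list that include it are therefore no support for a difference. Slc26a7, an anion transporter related to pendrin, read 61.2, 69.8 and 56.8 in Mest-KO, against 45.9, 40.7 and 30.2 in control (0.52 ± 0.17; limma, adjusted p = 0.351). Kcnq1, the potassium channel that secretes potassium into endolymph, averaged 55.8 ± 7.07 in Mest-KO and 40.1 ± 5.86 in control (0.36 ± 0.17; limma, adjusted p = 0.565). Trpv6, a calcium channel, differed by 0.37 ± 0.19 (limma, adjusted p = 0.592). The genotypes did not overlap for these 4 of the 17 genes, beside 14.5% of all genes tested. Of the 24 genes of the list with a probe set, Slc26a3, Slc26a5, Atp6v1b1, Atp6v0a4 and Bsnd were above background on no array.

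Of 18 tested genes of gap junctions and epithelial barriers, 0 passed, with 10 positive and 8 negative log2 differences and a median of 0.01. At an unadjusted p under 0.05 there was 1 of the 18, Gjc1, lower, beside 8.97% of all genes tested. Gjc1, a connexin of heart, vessel and neural cells, read 2215, 2237 and 2081 in Mest-KO, against 2451, 2388 and 2552 in control. All Mest-KO readings were below all control readings, the only one of the 18 genes without overlap, beside 14.5% of all genes tested (-0.18 ± 0.07; limma, adjusted p = 0.499). Gja1, the most widely used connexin gene, averaged 7788 ± 591 in Mest-KO and 8610.3 ± 773 in control (SD, n = 3 each), with overlap (-0.14 ± 0.08; limma, adjusted p = 0.627). Cldn11, a tight junction gene of the stria vascularis and of myelinating glia, read 438.9, 545.1 and 347.5 in Mest-KO, against 748.0, 378.1 and 770.5 in control. Control 1 and control 3 were high as for the neural tube markers (-0.45 ± 0.25; limma, adjusted p = 0.632). Gjb5, a connexin gene of surface epithelia, differed by 0.33 ± 0.20 (limma, adjusted p = 0.659). Gja10, Gjb1, Gjc3 and Gje1 were above background on no array.

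**Figure D4:**
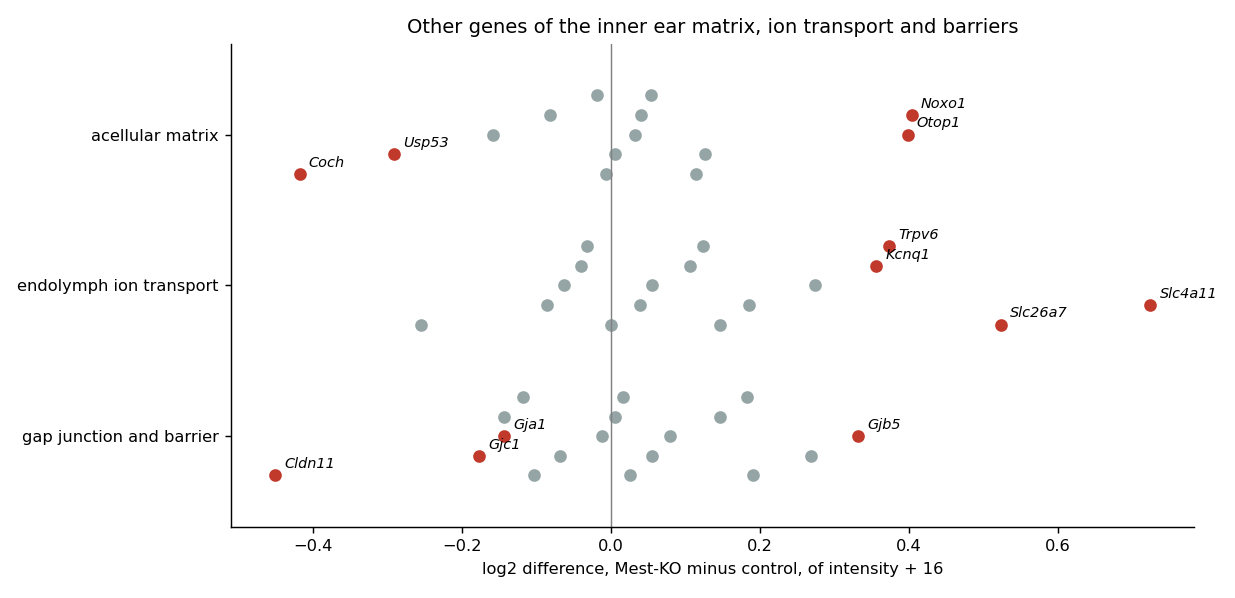
Log2 difference, Mest-KO minus control, on the log2(intensity + 16) scale, for the tested genes of 3 lists. Each point is 1 gene, and the named genes in red have the 4 smallest p of their list. None passed at an adjusted p under 0.05, and Slc4a11 lies farthest to the right with control readings not above background.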

How the data were processed

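RNA from 6 pools was hybridised to 1-colour Affymetrix mouse arrays after labelling 300 ng of total RNA for each, per the labels' protocols. The authors deposited 1 intensity per probe set, on a linear scale, and the submitters' processing notes name Affymetrix Expression Console 1.1. Neither the summarisation of probes nor the correction for background is stated there. The trimmed mean (2% left out at each end) was 500.002 for all arrays, so a shift common to most genes cannot be seen. Precision is limited by the number of arrays.

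Of 45101 probe sets, 34945 carried 1 gene symbol, and 64 controls entered no test. For a gene with several probe sets the brightest on the log2(intensity + 16) scale was used, and genes below the 30th percentile were dropped. The added 16 shrinks differences of dim genes. Genotypes were compared two-sided in limma 3.58.1 (R 4.3.3; eBayes with trend), with Benjamini-Hochberg adjustment over 14170 genes, and again over all probe sets unfiltered. Errors of log2 differences are standard errors. The limma step was tested on simulated data drawn independently for each gene, so variation shared between genes was not covered. The 9 genes, the 3 lists of related genes and the 9 marker lists were chosen with earlier results of these data known. All 9 genes were named, and from the 3 lists of related genes the 4 with the smallest p. From the marker lists the genes past the threshold were named and, for otic epithelium, the 4 with the smallest p. The 3 genes most alike in pattern were named for the 3 brightest of the genes detected on all arrays. Alternatives covered scaling, pseudocount, filter, probe set choice, variance model, replicate block, detection level and single arrays.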

Additional observations from a re-analysis of the deposited data

How the results depend on the processing

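Of 130 refits of the 8 genes' log2 differences, 125 kept their direction and 0 passed the threshold. The 5 that turned were all of Gjb6, at 0.081 with arrays centred on the otic epithelium markers, and without single arrays, where it ran from -0.25 to 0.12, at 0.03 without Mest-KO 1, 0.12 without Mest-KO 3, 0.12 without control 1 and 0.07 without control 3. Oc90 ran from 0.11 to 0.28, Otog from 0.28 to 0.73, Otoa from 0.09 to 0.38, Tecta from 0.04 to 0.25, Tectb from -0.29 to -0.03, Slc26a4 from -0.54 to -0.08 and Gjb2 from 0.02 to 0.18. Of the 7 genes in the gene fit (4 with the filter at the 50th percentile and 8 with none) 0 passed under the 17 alternatives, of the 8 probe sets 0 under 15, and of the 3 lists of related genes 0 under the 17, while 5 to 7 genes were detected on all arrays. Tbx1 turned to 0.065 with arrays centred on the otic epithelium markers and to 0.00045 with array weights, and without single arrays it ran from -0.14 to 0.10. Centring on the otic epithelium markers put the median of all genes at 0.11, where it had been 0.01. The 21 genes called over all genes became 78 with arrays centred on their medians, 43 with centring on the otic epithelium markers, 2 with no filter, 6 with the mean of all probe sets and 1 with eBayes without trend. Without single arrays they were 2 to 82. With the replicate block 9 passed. Deviations of same-numbered pools from their genotype means correlated at -0.03, -0.11 and -0.15. These values show no pairing of pools by number, but with 3 pools per genotype they cannot exclude it. The cause of these shifts was not tested. Intensities near background limit what can be said of Slc26a4 and Tectb.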
